A study of Mus musculus with 6 samples.

Results

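The genes described here are 38 members of the Wnt signalling pathway, chosen by name and read in LT-HSC, the long-term blood-forming stem cells that sustain all blood lineages for life. They comprise 5 Wnt ligands, 2 genes of ligand secretion and agonism, 11 receptors, 3 extracellular inhibitors, 4 Dishevelled and feedback adaptors, 6 members of the destruction complex and 7 nuclear factors and effectors. Rows were found by the gene's current symbol or by an older one, which gave 40 rows for 37 of the 38 genes, out of 28888 genes on the array after matching. TCF7L1 had no row that could be attributed to it. The LT-HSC were sorted from bone marrow of male mice of the strain labelled C56 Bl/6, aged 2 months. One group was taken 2 days after sex steroid ablation (SSA), which removes the gonadal hormones, and the control group 2 days after a sham ablation, with 3 Illumina MouseWG-6 arrays in each group. The labels give no genetic modification in either group, and they do not say how many animals went into a sample, whether animals were pooled or which surface markers defined the sort. The p-values therefore reflect variation among these samples only, and that variation may be technical in origin.

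Wnt proteins are secreted glycoproteins that bind Frizzled receptors together with the co-receptors LRP5 and LRP6. Without ligand, a destruction complex built on AXIN and APC lets the kinases CSNK1A1 and GSK3 phosphorylate β-catenin (CTNNB1), which is then degraded. With ligand, Dishevelled proteins draw AXIN to the membrane, β-catenin accumulates, enters the nucleus and switches on genes bound by TCF and LEF factors, among them AXIN2, which feeds back on the pathway. In bone marrow, Wnt signals are known to affect stem cell self-renewal and quiescence in a dose-dependent way, and several branches act without β-catenin. β-catenin is controlled mainly as a protein, a level that a transcript array does not read.

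The array reads each row with many beads, a median of 44 per row, and gives a linear signal and a detection score. A row was counted as detected on an array at a detection p under 0.05, and between 35.8% and 37.7% of rows passed on each array. Background signal averaged 126.1 to 137.7 per array with an SD of 7.45 to 8.95, so a signal near 150 carries little information. On 19.9% of rows the score did not follow the signal, and 17 members had such a row. Members were therefore also read by the signal itself, as above the background mean plus 3 SD (148.45 to 164.55 by array). Sham array 2 stood apart slightly. The correlations between arrays over all genes ran from 0.9547, between SSA array 1 and sham array 2, to 0.9879. Column numbers of all SSA arrays precede those of all sham arrays, so an order or batch effect cannot be told apart from SSA.

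Of the 14 stem cell markers, 13 were detected on at least 3 arrays, and PROCR, the endothelial protein C receptor of LT-HSC, on none. Their summed signal above background ran from 14600 to 17700 in SSA and from 10900 to 17900 in sham arrays. Several lists of other cell states were lower in sum or in mean after SSA, but no marker tested passed the adjusted threshold. Not every list went lower. The 3 B cell genes tested were all higher in mean, as were 4 of 6 megakaryocyte genes and 2 of 4 endothelial genes. The 6 tested cell cycle genes were all lower in mean after SSA, and the summed signal of the 8 in the list was 1780 to 2390 against 2890 to 4210. The 8 immediate-early genes tested, which respond to handling of tissue, were also all lower in mean, with sums of 2080 to 15400 against 7730 to 54600. The eosinophil, basophil and mast cell sum was 1140 to 1770 against 2930 to 5420, that of the T and NK cell list 2110 to 2490 against 2640 to 4640, and that of a progenitor list 11300 to 13600 against 14400 to 19100. Within the progenitor list MPO (−0.56) and CTSG (−0.76) were lower in mean while PRTN3, CD34 and CD48 were higher (0.11, 0.38 and 0.07), with a median log2 difference of 0.07 over the 5 tested. NKG7 (−0.51) made up most of the T and NK cell sum. LCK and IL7R differed by −0.10 each and KLRB1C by 0.47, and the median over the 4 tested was −0.10. Of the 7 tested in the eosinophil, basophil and mast cell list 6 were lower in mean, most of all EAR2 (−2.1) and PRG2 (−1.9). CPA3 (−0.42), FCER1A (−0.2) and MCPT8 (0.1), its basophil and mast cell genes, differed less. The 8 neutrophil and monocyte genes tested and the 8 erythroid genes tested were all lower in mean, with sums of 2220 to 5990 against 4260 to 12300 and of 4680 to 13200 against 9740 to 20700. Both sums, like the immediate-early sum, overlapped between the groups. The part of these shifts in the results below was not tested, and in a sorted population fewer cells of a type and less RNA per cell cannot be told apart.

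A minority of the Wnt genes was measurable in these cells, as of all genes on the array, and none passed the test between SSA and sham. By the detection score, 13 of the 37 members with a row were detected on at least 3 of the 6 arrays, beside 10821 of 28888 genes. By the signal level 14 were above background on at least 3 arrays, beside 10437 of 28888 genes. One criterion or the other was met by 18 members. The remaining 19 members with a row met neither, and 15 members were detected on no array. For the counts of 18, 19 and 15 no share over all genes is given. By role, 1 of 5 ligands met either criterion, as did 1 of 2 genes of ligand secretion and agonism and 6 of 11 receptors. So did 1 of 3 extracellular inhibitors and 1 of 4 Dishevelled and feedback adaptors. The count was 4 of 6 for the destruction complex and 4 of 6 for the nuclear factors with a row. These counts are small, and no share over all genes is given for them either.

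**Figure D1:**
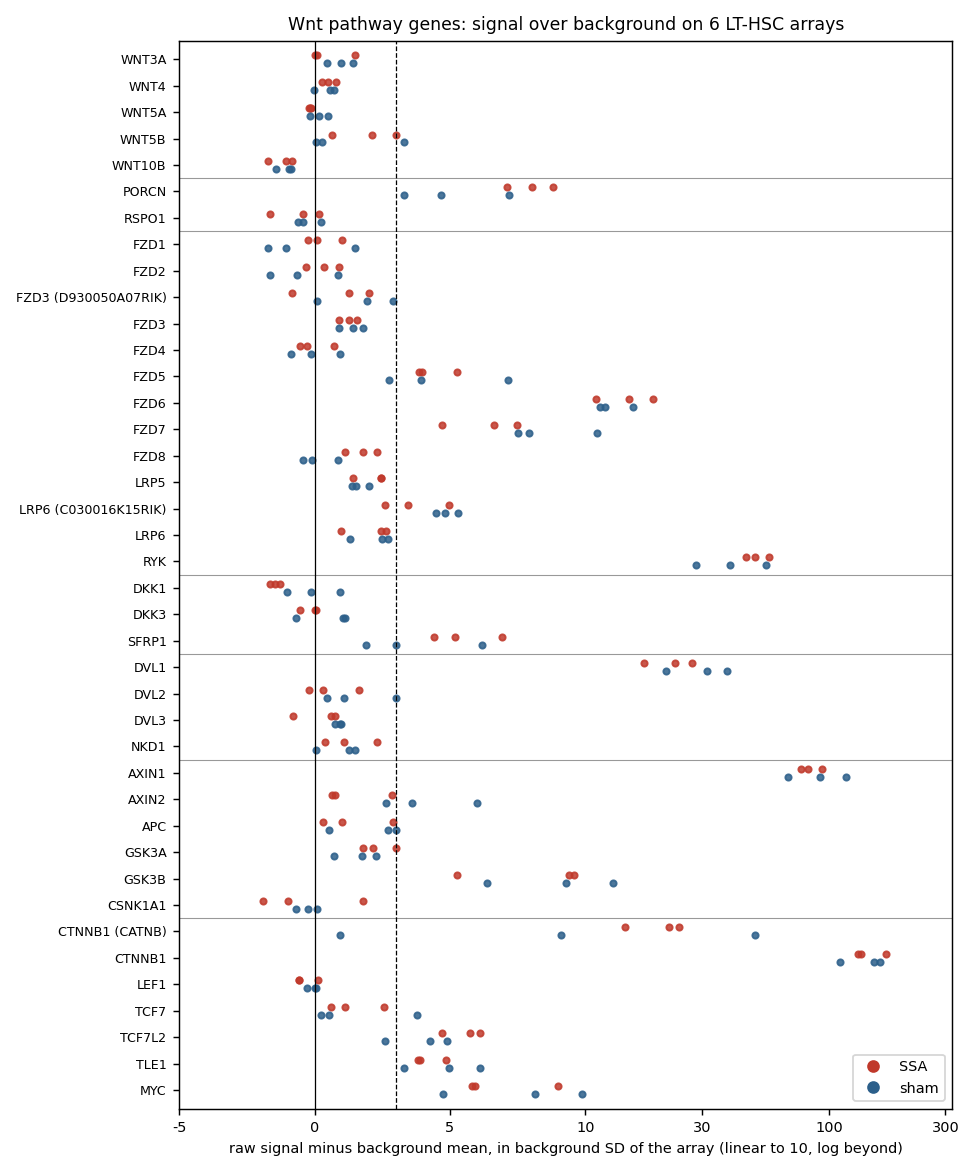
Signal above background, in background SDs on an axis that is linear to 10 and logarithmic beyond, for the 40 rows of the 37 members with an attributed row, grouped by role, with 1 point per SSA or sham array. The dashed line marks 3 SD. Genes such as CTNNB1, AXIN1 and RYK lie far above it on every array, while most ligands lie around 0.

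The comparison was made with limma on background-corrected, quantile-normalised log2 signals, with Benjamini-Hochberg adjustment over all genes and a threshold of 0.05. Of 10821 genes tested under the detection criterion 1 passed, the eosinophil-associated ribonuclease gene EAR6, which is 0.00924% of genes. None of the 13 members passed, and the smallest adjusted p among them in limma was 0.565. At an unadjusted p under 0.05, 8.46% of all genes and 1 of the 13 members (AXIN2, lower) passed. Every SSA array lay above every sham array for 8.47% of genes and below for 6.09%, and for none of the 13 members in either direction. In mean, 6 members were higher and 7 lower after SSA, with a median difference of −0.02 on the log2 scale, beside 0.01 for all genes.

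Under the signal criterion 10437 genes were tested, 14 of them members. One gene passed the adjusted threshold, 0.00958%, and no member did. At an unadjusted p under 0.05, 8.61% of all genes passed, and 2 of the 14 members did, PORCN and TCF7L2, both higher after SSA. For the same 2 members every SSA array lay above every sham array, beside 8.59% of genes, and for none every SSA array lay below, beside 6.18%. The members' median was 0.01 on the log2 scale, and that of all genes was also 0.01. With no filter, 3 of 37 members lay wholly above sham in normalised signal, beside 6.46% of genes, and 1 wholly below, beside 5.68%.

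**Figure D2:**
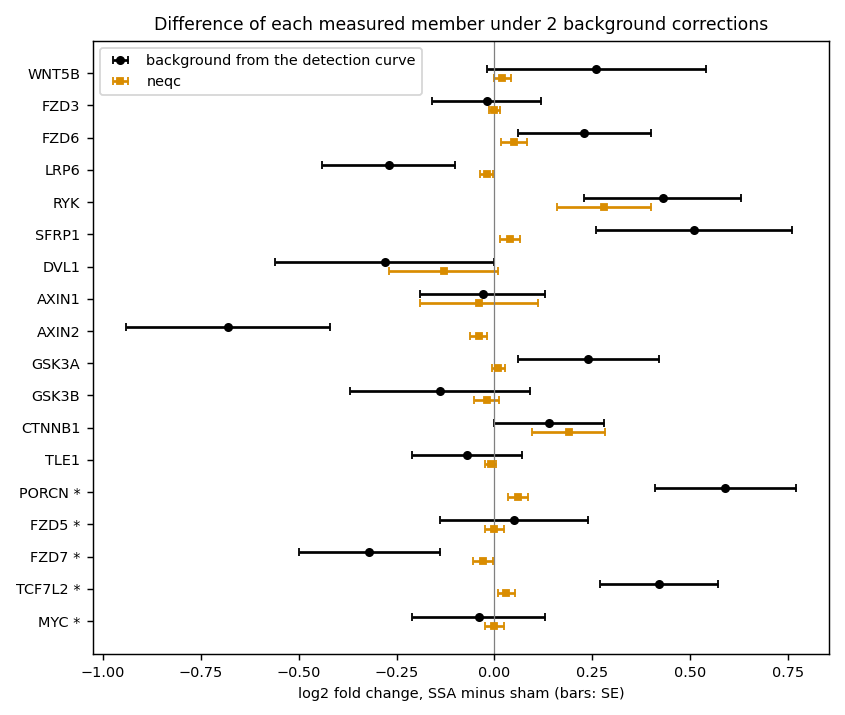
Difference in log2 signal, SSA minus sham, for the 13 members tested under the detection criterion and the 5 tested only under the signal criterion, with bars of 1 standard error. Black points use the background read from the detection curve and run from −0.68 for AXIN2 to 0.59 for PORCN. Orange squares use the background fitted by neqc and give −0.04 and 0.06 for the same genes. The neqc background has a far wider SD, which compresses the differences of dim genes. No adjusted p in limma was under 0.05 in either.

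Among the ligands, only WNT5B, a ligand that acts mostly without β-catenin, met the detection criterion, and it was close to background. Its signals were 150.2, 141.5 and 155.1 in SSA arrays 1 to 3 and 155.0, 126.4 and 140.3 in sham arrays 1 to 3. The groups overlapped, and the low value was sham array 2. The log2 difference, SSA minus sham, was 0.26 ± 0.28 (SE), with an adjusted p of 0.793 in limma. Leaving out 1 array moved it between 0.08 (without SSA array 3) and 0.51 (without sham array 1). WNT3A, the classical canonical ligand, and WNT10B, a canonical ligand made by several blood and stromal cells, were detected on no array, and neither were WNT4 and WNT5A. Their signals spanned 132.1 to 146.3 for WNT3A, 129.6 to 144.2 for WNT4, 129.8 to 136.2 for WNT5A and 115.4 to 129.9 for WNT10B. None of these signals exceeded the 3 SD level on any array.

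PORCN, the acyltransferase that attaches palmitoleate to Wnt proteins before their secretion, was above the signal level on every array. Its signals were 190.7, 200.4 and 199.4 after SSA and 185.0, 150.7 and 179.5 in sham samples, in array order. Each SSA array was above each sham array, and sham array 2 was the lowest. The normalised log2 signal was 6.34 ± 0.16 (SD, n = 3) after SSA and 5.75 ± 0.25 in sham samples, a difference of 0.59 ± 0.18 (SE) with an unadjusted p of 0.0109 and an adjusted p of 0.554 in limma. The neqc background gave a difference of 0.06. Its fitted SD was 194.91 to 302.65 by array, against 7.45 to 8.95 from the detection curve, and so wide a background compresses the differences of dim genes. By the score PORCN was detected on 1 sham array only. RSPO1, an R-spondin that strengthens Wnt signals at the receptor, spanned 119.4 to 139.7 and was detected on no array.

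Receptors, the largest role, had the most measurable members by number, 6 of 11, beside 4 of 6 for the destruction complex. RYK, a receptor tyrosine kinase-like protein that binds Wnt outside the Frizzled family, was detected on all 6 arrays. Its signals were 505.5, 588.9 and 510.9 after SSA against 554.0, 337.0 and 488.1 in sham samples. The SSA arrays were close together, and sham array 1 reached their range while sham arrays 2 and 3 were lower. On the normalised log2 scale the means were 8.76 ± 0.02 (SD, n = 3) and 8.32 ± 0.37, a difference of 0.43 ± 0.20 (SE), with an unadjusted p of 0.0607 and an adjusted p of 0.592 in limma.

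FZD6, a Frizzled known mainly from planar polarity and from restraint of canonical signalling, was the one Frizzled detected on all 6 arrays. Signals were 255.6, 286.6 and 216.2 after SSA and 222.5, 211.3 and 278.2 in sham samples. The groups overlapped, with SSA array 2 and sham array 3 at the top in raw signal, and SSA arrays 1 and 2 at the top after normalisation (7.23 and 7.24). The log2 difference was 0.23 ± 0.17 (SE), and the adjusted p in limma was 0.706. FZD3, a Frizzled known from axon guidance, met the detection criterion on 3 arrays with signals of only 132.8 to 150.5, and its log2 difference was −0.02 ± 0.14 (SE). A second FZD3 row, listed under the clone name D930050A07RIK, was also dim, at 126.0 to 155.0.

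FZD7 and FZD5 were above background by signal but rarely or never detected by score. FZD7, a receptor of canonical signals in several stem cell types, gave 186.9, 196.0 and 168.0 after SSA and 187.6, 185.2 and 237.3 in sham samples. In raw signal sham array 3 was high and SSA array 3 low, and the other arrays overlapped. After normalisation sham arrays 2 and 3 were the highest (6.51 and 6.52). The log2 difference was −0.32 ± 0.18 (SE) with an adjusted p of 0.604 in limma. For FZD5, a Frizzled known from the intestine and eye, signals were 165.2, 178.3 and 161.5 after SSA and 160.0, 146.6 and 201.6 in sham samples, with a difference of 0.05 ± 0.19 (SE). The sham arrays bracketed the SSA arrays.

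FZD1, FZD2, FZD4 and FZD8 met neither criterion. FZD8 signals were 151.7, 150.7 and 140.7 after SSA, of which 1 array was detected, and 128.9, 132.6 and 133.9 in sham samples, of which none was. The SSA arrays were all above the sham arrays, at signals below the 3 SD level on every array. Without a filter on dim rows, limma gave FZD8 an unadjusted p of 0.0155 and an adjusted p of 0.640. FZD1, FZD2 and FZD4 lay between 113.8 and 140.9 and were detected on no array.

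The co-receptor LRP6 was represented by 2 rows. The brighter one, listed as C030016K15RIK, gave 154.0, 176.0 and 158.5 after SSA and 170.6, 159.6 and 180.7 in sham samples. The groups overlapped, and 2 of the 3 SSA arrays were below all sham arrays. Its log2 difference was −0.27 ± 0.17 (SE) with an adjusted p of 0.645 in limma. The row named LRP6 spanned 135.9 to 162.0 and gave a difference of 0.00, so the rows of one gene did not give one value. LRP5, the paralogous co-receptor, was detected on 1 array, with signals of 137.4 to 156.0.

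Of the extracellular inhibitors only SFRP1, a secreted Frizzled-like protein that binds Wnt, met a criterion. Signals were 175.0, 171.6 and 184.9 after SSA and 177.3, 140.2 and 164.5 in sham samples. Sham array 1 lay inside the SSA range, and sham array 2 was close to background. Mean log2 signal was 5.91 ± 0.32 (SD, n = 3) after SSA and 5.40 ± 0.42 in sham samples. The difference of 0.51 ± 0.25 (SE) had an unadjusted p of 0.0811 and an adjusted p of 0.602 in limma. SFRP1 is known from marrow stroma, where osteoblasts make it, and of 10 stromal, osteoblast and adipocyte markers only PDGFRB was detected on at least 3 arrays. KITL was detected on 2 arrays, and COL1A2 and RUNX2 on 1 each. CXCL12, LEPR, COL1A1, ADIPOQ, SP7 and PDGFRA were detected on no array, and the summed list was 52.3 to 91.5 after SSA and 80.8 to 120 in sham samples. The part of stromal cells in the SFRP1 signal was not tested. DKK1, the secreted antagonist of LRP5 and LRP6, spanned 119.3 to 146.2 without detection. Its raw signals overlapped, at 122.5, 124.9 and 119.3 after SSA and 121.8, 125.0 and 146.2 in sham samples, and it was the 1 member below sham on every SSA array after normalisation only (highest SSA value 4.31, lowest sham value 4.33). DKK3, a related protein, was detected on 1 array.

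DVL1, one of the Dishevelled proteins that pass the signal from Frizzled, was detected on all 6 arrays. Its signals were 274.8, 322.5 and 342.3 after SSA and 294.2, 409.8 and 419.6 in sham samples. In raw signal sham arrays 2 and 3 were above all SSA arrays, and sham array 1 lay among them. After normalisation SSA array 3 (7.98) was above sham array 3 (7.85). The log2 difference was −0.28 ± 0.28 (SE), smaller than the sham SD of 0.53, and the adjusted p in limma was 0.772. DVL2 and DVL3 met neither criterion, at 135.0 to 148.5 and 130.3 to 146.0. NKD1, a feedback inhibitor that binds Dishevelled, was detected on 1 array.

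The destruction complex was measurable through AXIN1, AXIN2, GSK3A and GSK3B. AXIN1, its scaffold, had signals of 803.2, 880.7 and 716.2 after SSA and 833.9, 631.1 and 1191.7 in sham samples. The sham arrays held both the lowest and the highest value. Mean log2 signal was 9.46 ± 0.10 (SD, n = 3) after SSA and 9.48 ± 0.21 in sham samples, a difference of −0.03 ± 0.16 (SE) with an adjusted p of 0.970 in limma.

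AXIN2, the scaffold paralogue whose transcript is induced by β-catenin and serves as the usual reading of canonical activity, was dim. Signals, each with its standard error between beads, were 138.0 ± 5.48, 142.4 ± 3.44 and 154.0 ± 6.31 after SSA and 150.0 ± 6.39, 152.9 ± 5.13 and 191.3 ± 9.68 in sham samples. Detection was reached on 1 SSA array and on all 3 sham arrays. Only 2 of the 6 arrays exceeded the 3 SD level, and the groups overlapped, since SSA array 3 was above sham arrays 1 and 2 in signal. Normalised log2 signals were 4.61, 4.64 and 5.34 after SSA and 5.11, 5.69 and 5.83 in sham samples. Their means were 4.86 ± 0.41 (SD, n = 3) and 5.55 ± 0.38, a difference of −0.68 ± 0.26 (SE). The unadjusted p was 0.0331 and the adjusted p in limma was 0.565. With the background that neqc, limma's own routine, fitted to these rows, the difference was −0.04. As given for PORCN, the SD of that background is far wider than the detection curve shows. Over the alternatives the difference ran from −1.07 to −0.04 and kept its sign.

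The kinases gave smaller differences. GSK3B, which phosphorylates β-catenin for degradation, gave 210.8, 211.1 and 172.3 after SSA and 230.1, 173.4 and 220.7 in sham samples, with 1 low raw signal in each group. Its log2 difference was −0.14 ± 0.23 (SE) and the adjusted p 0.878 in limma. GSK3A, its paralogue, gave 150.4, 150.8 and 154.9 against 135.3, 139.1 and 157.9, with sham arrays 1 and 2 below all SSA arrays in raw signal and sham array 3 above them. Normalised log2 signals were in another order, at 5.08, 4.93 and 5.38 after SSA and 4.63, 5.02 and 5.04 in sham samples. Their difference was 0.24 ± 0.18 (SE) at an adjusted p of 0.715 in limma. It ran from 0.10 to 0.34 when 1 array was left out and was 0.05 with array weights. APC, the large scaffold that is a tumour suppressor of the intestine, was detected on no array, at 130.2 to 164.6. CSNK1A1, the priming kinase, was also detected on none, at 117.3 to 150.8, although nearly all cells use this gene, so its row does not show whether the gene was expressed.

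Promoter sequences are shown for 3 of these genes because TCF and LEF factors act on DNA: AXIN2 as the target gene, and GSK3B and WNT5B as members that hold the core TCF/LEF letters. The letters searched were CTTTGA on either strand (TCAAAG when read on the other), in the 250 bases before each gene start of the RefSeq table, build GRCm38.p6. Of the 38 members 24 matched the table by symbol. Each sequence is given 5′ to 3′ on the gene's strand, in lower case with a match in capitals.
Axin2, chr11:108920099-108920348, plus strand: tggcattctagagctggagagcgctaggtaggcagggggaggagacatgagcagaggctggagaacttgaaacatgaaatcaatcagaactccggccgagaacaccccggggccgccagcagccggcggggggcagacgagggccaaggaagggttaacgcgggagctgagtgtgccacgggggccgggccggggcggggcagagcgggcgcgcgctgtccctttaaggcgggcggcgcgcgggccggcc
Gsk3b, chr16:38088751-38089000, plus strand: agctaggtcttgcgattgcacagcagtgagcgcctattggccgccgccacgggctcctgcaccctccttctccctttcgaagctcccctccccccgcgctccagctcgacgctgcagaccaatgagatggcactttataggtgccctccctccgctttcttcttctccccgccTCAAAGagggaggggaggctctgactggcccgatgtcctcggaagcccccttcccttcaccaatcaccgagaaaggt
Wnt5b, chr6:119449387-119449636, minus strand: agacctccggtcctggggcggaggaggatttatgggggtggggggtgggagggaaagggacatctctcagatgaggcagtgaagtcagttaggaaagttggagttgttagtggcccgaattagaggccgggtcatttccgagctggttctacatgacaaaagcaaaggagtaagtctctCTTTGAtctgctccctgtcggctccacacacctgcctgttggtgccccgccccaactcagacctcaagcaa
The Axin2 window has 24 CpG pairs and no match, which says only that these letters are not in this window. The Gsk3b and Wnt5b windows shown hold 1 match each. Wnt5b has 3 windows in the table, and the other two hold none. Over the 24 members, 6 (25.0%) had a match in at least 1 window, namely Dkk1, Fzd1, Gsk3a, Gsk3b, Lef1 and Wnt5b, beside 15.8% of 27025 genes in the table and 7 of 25 (28.0%) known Wnt target genes. The share per gene rises with the number of windows, which was 32 for these 24 members and 32851 for all genes. Each of the 6 members matched in 1 window only, and 13.8% of all windows held a match. A match is a description of the letters and no evidence of binding. The 3 genes shown had log2 differences of different sign, −0.68, −0.14 and 0.26, none past the test.

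β-catenin itself was among the clearly measured members. The row named CTNNB1 gave 1205.1, 1504.1 and 1163.8 after SSA and 1301.7, 950.2 and 1586.3 in sham samples. In raw signal the sham arrays spanned the SSA arrays on both sides. After normalisation they ran from 9.96 to 10.19, beside 10.18 to 10.30 after SSA. Normalised log2 signal was 10.24 ± 0.06 (SD, n = 3) after SSA and 10.10 ± 0.12 in sham samples, a difference of 0.14 ± 0.14 (SE) with an adjusted p of 0.768 in limma. A second row under the older name CATNB gave 312.8, 328.9 and 243.2 against 512.7, 133.2 and 219.3. On this row sham array 2 was not detected (detection p 0.19) and sham array 1 was the highest. The mean difference was 0.96 on the log2 scale, with sham SDs of 2.0 on the CATNB row against 0.12 on the CTNNB1 row. With both rows averaged the gene's difference became 0.55, at an adjusted p of 0.727 in limma.

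**Figure D3:**
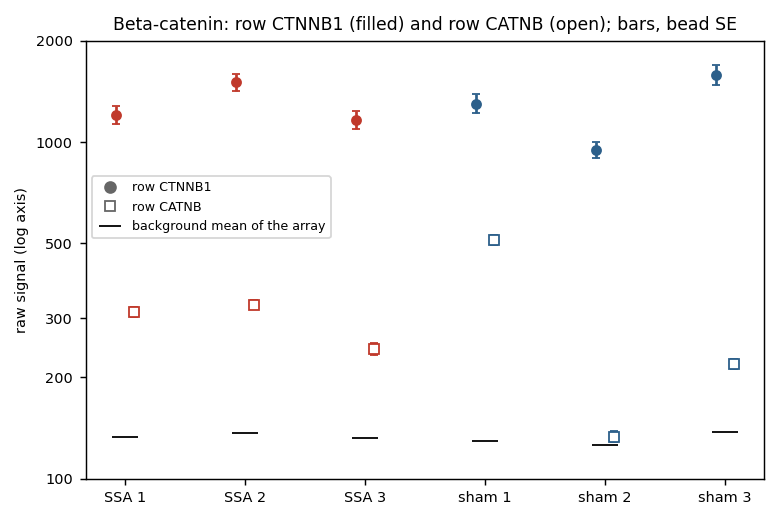
Raw linear signal, on a log axis, of the 2 rows of β-catenin on each of the 6 arrays, with bars of 1 standard error between beads and a black dash at each array's background mean. The CTNNB1 row stays between 950.2 and 1586.3, while the CATNB row runs from 133.2 in sham array 2 to 512.7 in sham array 1.

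The DNA-binding partners of β-catenin were weak or undetected. TCF7L2, the TCF factor best known from intestine and pancreatic islets, was above the signal level on 5 arrays and detected by score on 2. Signals were 182.6, 182.2 and 167.9 after SSA and 162.6, 145.4 and 181.4 in sham samples. After normalisation every SSA array was above every sham array, at 5.93 ± 0.16 (SD, n = 3) against 5.51 ± 0.14. The difference of 0.42 ± 0.15 (SE) had an unadjusted p of 0.0265 and an adjusted p of 0.554 in limma. With the neqc background, which compresses dim genes, the difference was 0.03. LEF1, a factor of lymphoid cells and their precursors, was detected on no array, at 126.6 to 137.9. TCF7, the factor of T cells also found in some blood progenitors, was detected on 1 array of each group, at 131.6 to 154.3. Of 11 T and NK cell markers with a row, CD3E, CD3D, CD3G, CD4, CD8A and TRAC were detected on no array. NKG7 (1892 to 4203) and LCK (367 to 517) were detected on all 6, KLRB1C on 5 and IL7R on 3, and THY1 was above the signal level on all 6. The part of such cells in the TCF7 signal was not tested.

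TLE1, a Groucho co-repressor that holds TCF targets silent without β-catenin, was detected on all 6 arrays. Its signals were 163.8, 175.1 and 161.8 after SSA and 168.0, 150.8 and 192.4 in sham samples, which again bracketed the SSA arrays in raw signal. After normalisation the lowest value was that of SSA array 1 (5.59). The log2 difference was −0.07 ± 0.14 (SE), with an adjusted p of 0.897 in limma. MYC, a transcription factor and known target of the pathway, was above the signal level on every array but detected by score on none. Its signals were 180.3, 207.9 and 177.4 after SSA and 205.8, 161.3 and 210.7 in sham samples, which bracketed the SSA arrays. The log2 difference was −0.04 ± 0.17 (SE), at an adjusted p of 0.955 in limma.

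Some TCF names are shared between genes, and those rows were given to no member. The row TCF3 is the current symbol of an E protein gene and an older name of TCF7L1, and its signals were 184.6, 174.9 and 196.6 after SSA and 155.1, 145.5 and 185.6 in sham samples. The row TCF4 is the current symbol of another E protein gene and an older name of TCF7L2, and its signals ran from 560.7 to 1112.5. Reading either of these as a TCF or LEF factor of the Wnt pathway would rest on the name alone.

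**Figure D4:**
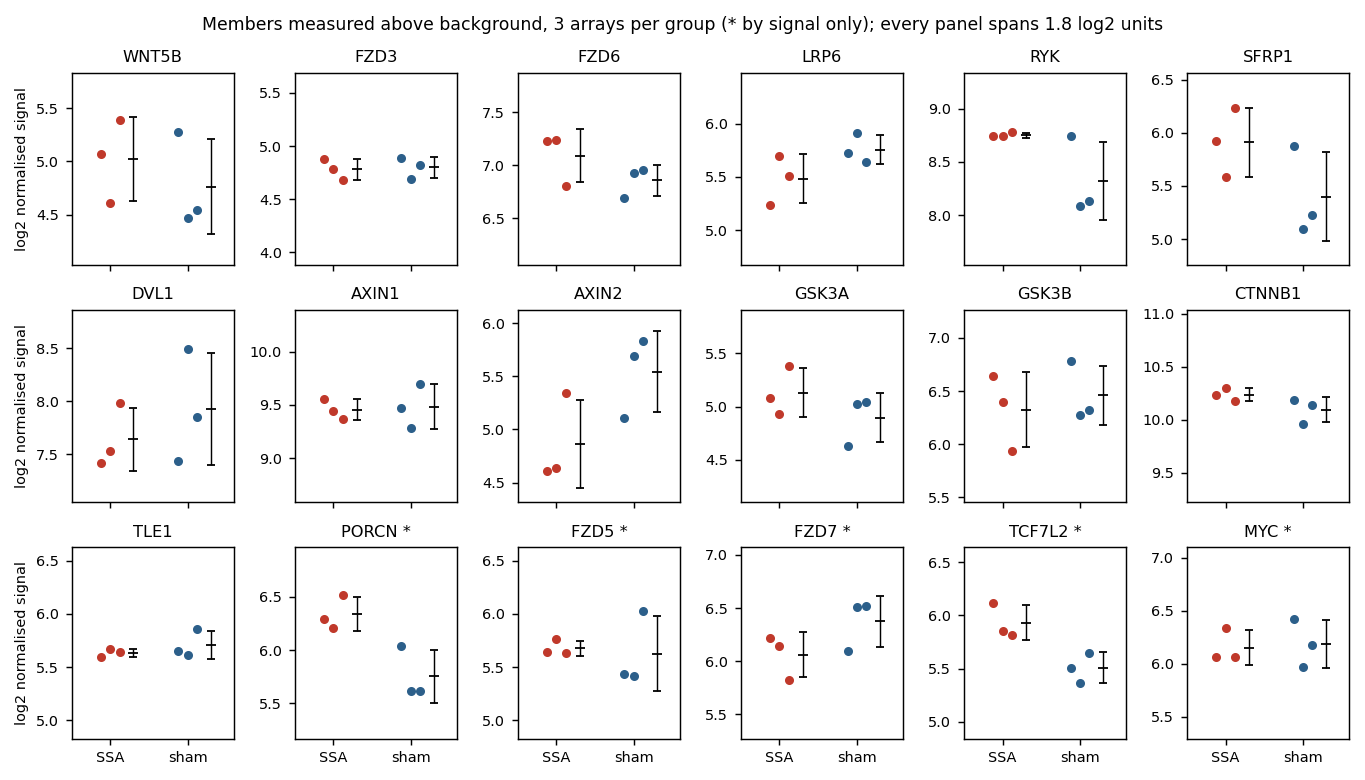
Normalised log2 signal of the 18 members that met a criterion, 1 panel per gene, with 1 point per SSA or sham array in array order and the group mean with its SD (n = 3) beside the points. Of the 18, only PORCN and TCF7L2 have all SSA arrays above all sham arrays, while the SSA arrays of RYK lie together and its sham arrays spread from 8.09 to 8.74.

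Sham array 2 held the lowest raw signal of several members, among them RYK, SFRP1, PORCN, AXIN1, CTNNB1 and TCF7L2. In log2 units, the 13 members' median deviation from their means was 0.09, −0.01 and 0.01 for SSA samples 1 to 3, and for sham samples it was 0.02, −0.10 and 0.01. Without that array the difference was 0.32 for RYK, 0.35 for SFRP1, 0.51 for PORCN and 0.35 for TCF7L2. It was 0.07 for CTNNB1 and −0.13 for AXIN1. All 6 kept their direction in mean, and none passed the adjusted threshold.

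The rest of the pathway was read through a list of 123 other Wnt pathway genes, of which 119 had a row and 59 were tested. None passed the adjusted threshold in limma. At an unadjusted p under 0.05, 4 were higher and 1 lower after SSA, a share near the 8.46% of all genes (512 higher and 403 lower of 10821). In mean 35 were higher and 24 lower, with a median difference of 0.08 beside 0.01 for all genes. Every SSA array lay above every sham array for 8 of the 59 and below for 6, beside 8.47% and 6.09% of all genes. The genes with the smallest p included ROR2, a receptor of WNT5A, at 157.6, 172.5 and 163.0 after SSA and 144.3, 135.7 and 154.3 in sham samples. All SSA arrays were above all sham arrays, and the log2 difference was 0.66 ± 0.14 (SE), with an unadjusted p of 0.00188 and an adjusted p of 0.564 in limma. ROR2 was detected on 3 arrays, and only the SSA arrays exceeded the 3 SD level. By its signals the 3 detected arrays were those of SSA, so it passed either filter only through the group in which it was high. Its p is therefore no support for a difference. TBL1X, a co-regulator subunit that binds β-catenin, gave 380.5, 420.5 and 626.8 against 353.3, 205.2 and 331.7, also without overlap. Its difference was 1.13 ± 0.34 (SE) at an adjusted p of 0.564 in limma. CCDC88C, a Dishevelled-binding protein, was lower in mean by a log2 difference of −0.51 ± 0.18 (SE), with signals of 158.6 to 178.9 after SSA and 173.1 to 213.1 in sham samples. The next in order were CREBBP, a histone acetyltransferase that β-catenin recruits (0.42 ± 0.18, SE), CELSR1, a cadherin of planar polarity (0.34 ± 0.14), and TPBG, a membrane inhibitor (0.57 ± 0.26). Adjusted p for these 4 genes in limma was 0.564 to 0.592. CREBBP, at 129.7 to 157.9, and TPBG, at 132.0 to 168.7, were close to background, and the CREBBP score did not follow its signal. The brightest genes of their roles gave log2 differences of 0.17 for WLS, which carries Wnt proteins to the cell surface, 0.03 for ATP6AP2, a receptor-associated proton pump subunit, 0.18 for PRICKLE3, 0.16 for PYGO2, a co-activator of β-catenin, −0.14 for PPP2CA, a phosphatase subunit, and −0.37 for APCDD1, a membrane inhibitor.

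Known targets of β-catenin were read through a list of 40 genes, AXIN2 included, of which 36 had a row and 11 were tested. None passed the adjusted threshold, and at an unadjusted p under 0.05, 3 were lower and none higher, beside 403 lower and 512 higher of all 10821 genes (8.46% together). Under the signal criterion 2 were lower and 1 higher. In mean 5 were higher and 6 lower. The median difference was −0.30, and −0.04 under the signal criterion, beside 0.01 for all genes in both. BIRC5, survivin, which acts in mitosis, gave 577.8, 650.3 and 521.3 after SSA and 863.4, 877.0 and 1147.4 in sham samples. All SSA arrays were below all sham arrays. The log2 difference was −0.76 ± 0.15 (SE), with an unadjusted p of 0.000847 and an adjusted p of 0.564 in limma. The cell cycle list given above, which holds BIRC5 itself, was lower in mean in the same direction. JUN, an immediate-early transcription factor, gave 176.4, 444.3 and 170.8 against 279.6, 968.8 and 1686.8, with a difference of −2.50 ± 0.87 (SE) at an adjusted p of 0.564 in limma. The groups overlapped. The immediate-early list, which holds JUN itself, was also lower in mean, its median log2 difference being −2.7. CCND1, cyclin D1, gave 1100.2, 1046.1 and 994.4 against 1332.5, 661.4 and 1215.2, and its log2 difference of 0.13 ± 0.23 (SE) was smaller than its error. VEGFA, a growth factor of blood vessels (−0.30 ± 0.16, SE), and PPARD, a nuclear receptor (0.27 ± 0.16), were also among the 6 of smallest p, at adjusted p of 0.602 and 0.638 in limma. The part of cell cycle and immediate-early genes in the differences of BIRC5 and JUN was not tested.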

How the data were processed

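Biotinylated cRNA from LT-HSC total RNA was read on Illumina MouseWG-6 V2.0 arrays, per the labels and file headers. The deposited table holds linear intensity per gene name and array, without background correction or normalization, from GenomeStudio 1.8.0, per the file headers. How probes sharing a name were combined is not given in the sources used here. The authors also deposited a detection score as a fraction, used here as 1 minus a detection p, and the number of beads. The series matrix, on a linear intensity scale, equals the deposited signal minus a constant per array (126.6 to 138.1) and lacks 7 rows.

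Names were matched to GRCm38.p6 symbols (15991 rows to a current symbol, 5826 to an older one, 119 to several and 8838 to none). Signals were corrected by normexp, with the background mean and SD of each array read where the detection score crossed 0.5, 0.16 and 0.84, an offset of 16 was added, and values were quantile-normalised and taken to log2. The offset understates changes of dim genes. Genes detected on at least 3 of 6 arrays were kept, each by its brightest row. SSA and sham were compared, two-sided, with limma 3.58.1 in R 4.3.3 (lmFit, eBayes, group as the only term), and p-values were adjusted by Benjamini-Hochberg over all genes tested. The fit was also run on simulated data that held changes in bright rows only, so that run says nothing of dim members. Rows departing from the detection curve by over 0.05 on any array (6131 of 30774) were marked, a threshold chosen after seeing the data. The signal criterion is a background mean plus 3 SD on at least 3 arrays.

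The members and lists were chosen with earlier results of these data known. Genes named outside the members were the 6 of smallest p in each list and the brightest of each role, except items not reported here, and marker lists are given by counts and sums. The number of arrays limits the precision. The labels do not say whether the replicate numbers shared by the groups pair the samples, and no pairing was assumed. Deviations of same-numbered arrays correlated at 0.398, −0.00859 and −0.195, and those of the other combinations at −0.466 to 0.372. With 3 arrays per group these values cannot decide whether the samples were paired. Alternatives were the background correction, normalization, offset, filters, array weights, the replicate block, row averaging, the matrix values and leaving out each array. No slide or scan date is in the headers used here, so no batch was tested.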

Additional observations from a re-analysis of the deposited data

How the results depend on the processing

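The number of genes called was 1 as reported, 1450 with array weights, 3 with a median shift per array, 4 with the replicate block, and 0 with neqc, without background correction and without a filter on dim rows, where limma gave 852, 990 and 2060 genes at an unadjusted p under 0.05. Leaving out 1 array gave 0 to 4, with 0 without SSA 1, SSA 2, sham 2 or sham 3 and 4 without sham 1. With array weights 2 members were called, RYK (0.58, adjusted p 0.0282) and AXIN2 (−1.07, adjusted p 0.0208), together with 8 other Wnt genes and 5 known targets. With the signal criterion as well, PORCN (0.65, adjusted p 0.0187), RYK and SFRP1 were called. These are 2 of 13 and 3 of 14 members, beside 1450 of 10821 and 1882 of 10437 genes called in those settings. The weight estimation reported that its tolerance was not reached, and the cause of these calls was not tested. No other alternative called a member, and the replicate block changed no member's call. The members' median was 0.047 with array weights and −0.05 to 0.08 when 1 array was left out (0.08 without sham 3).

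The number of members detected was 8 at a detection p under 0.01 or on all 6 arrays, 22 on at least 1 array and 14 by signal. Of the members in the detection fit, 8 of 13 kept one direction in every setting, as did 3 of the 5 tested only by signal, whose alternatives were chosen after seeing the data. GSK3B turned to 0.11 with array weights, and FZD5 to −0.28 with array weights and −0.02 with the median shift. Leaving out 1 array gave −0.07 to 0.03 for FZD3, −0.52 to 0.00 for DVL1, −0.13 to 0.08 for AXIN1, −0.29 to 0.06 for GSK3B, −0.12 to 0.00 for TLE1, −0.05 to 0.25 for FZD5 and −0.15 to 0.08 for MYC. Members that kept their sign also moved, such as FZD6 (0.15 to 0.38), LRP6 (−0.38 to −0.15), SFRP1 (0.35 to 0.75), FZD7 (−0.46 to −0.20) and RYK (0.32 to 0.64). The cause was not tested. Signals within 3 SD of background limit what can be said of the 19 members that met neither criterion.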
